A study of Tripsacum dactyloides with 133 samples.

Results

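In the crown roots of eastern gamagrass plants grown under drought, 150 genes were lower in plants with high identification numbers than in plants with low ones. They were chosen by that course. For each gene the Spearman correlation of its level with the plant number was computed over the 63 droughted plants that had received a live inoculum, and the 150 genes with the lowest values were kept, out of 17317 genes that have a maize orthologue and averaged at least 5 CPM (counts per 1000000 counts of the library) in those plants. The whole table holds 45865 genes. The correlations of the 150 genes ran from -0.720 to -0.625 with a median of -0.648, against a median of 0.023 over the 17317 genes. The decline of these genes along the droughted plants is therefore a description and carries no test, whereas the well-watered plants and the mock-inoculated plants had no part in the choice.

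Eastern gamagrass (Tripsacum dactyloides) is a perennial prairie grass and a close wild relative of maize. Crown roots arise from the base of the shoot and form much of the mature root system of grasses, where they take up water and nutrients. An orthologue is a gene in another species that descends from the same ancestral gene. The deposited tables pair gamagrass genes with maize genes by identifier and give no names or functions, so the genes are named by identifier, no role is assigned to them, and the tissue could not be checked against root or leaf markers.

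The study asked whether soil microbial communities with different precipitation histories alter how plants meet drought. Plants of the cultivar Pete were raised in a growth chamber in a sterilised sand and clay mix, were given either a live soil inoculum or a mock one, and were then kept in the test-phase treatment Drought or Well_watered. The live inocula came from the sites CWR, WEL, SVR and TRI and had been conditioned beforehand with gamagrass or no host, under drought stress or ample water. Among the libraries, 63 were live Drought, 62 live Well_watered, 4 mock Drought and 4 mock Well_watered, and each library was 1 plant. Mock plants are those that received no microbial extract, and whether their roots stayed free of microbes was not measured in these files. For the precipitation legacy, SVR and TRI were taken as low and CWR and WEL as high, as the methods of the study give it, since the labels name only the site.

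Each plant carries a number in its identifier. These ran from plantID_193 to plantID_388 in live Drought plants and from plantID_394 to plantID_491 in live Well_watered plants, so that water treatment and plant number cannot be told apart between the treatments. The study tracked plants by identification numbers that describe no treatment, and placed them at random in the growth chamber. What order the numbers follow, and the time of sampling, extraction or library preparation of each plant, are not given in the sources used here. Total counts per live library ranged from 13.6 to 64.2 M (M for 1000000 counts) in Drought and from 1.14 to 69.4 M in Well_watered plants, and 1 mock Well_watered library held only 6045 counts and is left out of every value below unless named. In the roots sampled here, fewer cells of a type and less RNA per cell cannot be told apart.

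Along the droughted plants the mean level of the 150 genes did not decline steadily. It stayed on a plateau up to plantID_295, and its median was then lower in each later range of plant numbers. Single genes could differ: Td00002ba011605 had correlations with plant number of -0.332, -0.484 and -0.319 within the first, second and last 21 live plants. The mean level over the 150 genes, as log2(CPM + 1), was 4.37 at its lowest, 5.20 in the median and 5.69 at its highest in the 11 live plants plantID_193 to plantID_219. In the 16 plants from plantID_226 to plantID_257 these values were 3.94, 5.28 and 5.74, and in the 9 plants from plantID_269 to plantID_295 they were 4.38, 5.04 and 5.34. Up to plantID_295 the level was thus flat apart from a few low plants. The 7 plants from plantID_301 to plantID_316 lay at 3.93, 4.49 and 5.08, the 7 plants from plantID_322 to plantID_348 at 3.19, 3.67 and 4.31, and the 13 plants from plantID_362 to plantID_388 at 3.04, 3.29 and 4.12. Plants from plantID_322 onwards hardly overlapped with plants up to plantID_295: 2 of 20 reached a mean level of 4 or more, and 1 of 36 lay under it. Over the same plants the mean level of all 17317 genes stayed between 4.54 and 4.81.

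**Figure D1:**
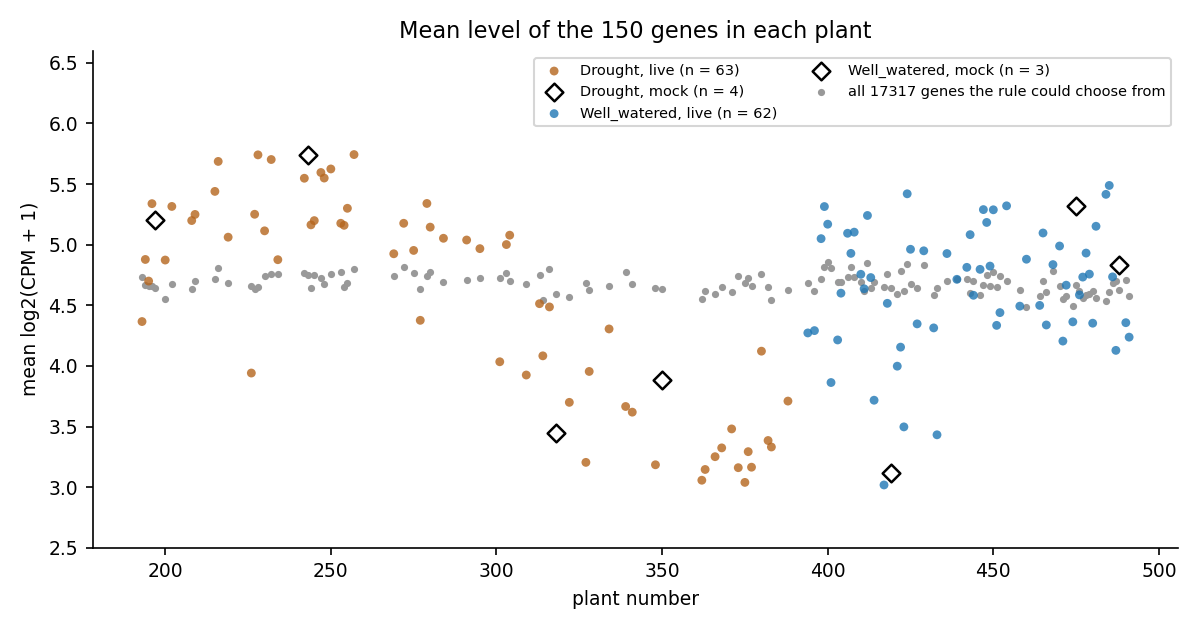
Mean log2(CPM + 1) of the 150 genes (y axis) in each plant, by plant number (x axis), with live plants as filled points, mock plants as open diamonds and the mean over all 17317 genes the rule could choose from as small grey points; the mock library of 6045 counts is not drawn. The live Drought plants sit near 5 up to plantID_295 and between 3.04 and 4.31 from plantID_322 on, and the Well_watered plants cover most of that range.

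For most of the single genes the drop lay between plantID_301 and plantID_339. For each gene the plant was taken at which a running median of 7 plants fell for good under the midpoint between the medians of the first 21 and the last 21 live Drought plants (plantID_193 to plantID_247 and plantID_316 to plantID_388). In the median over the 150 genes this was plantID_316, with a range from plantID_255 to plantID_348. It fell among plantID_301 to plantID_316 for 77 genes and among plantID_322 to plantID_339 for 63 genes, with 6 genes at plantID_295 or earlier and 4 at plantID_341 or later. The choice used these plants and the midpoint rests on the first and last 21, so this is a description. The genes share the plants, and their counts are not independent placements of the drop. Within the first 21 plants the correlation with plant number had a median of 0.183 and was under 0 for 40 of the 150 genes. It had a median of -0.453 within the second 21 plants (plantID_248 to plantID_314), where it was under 0 for 143 genes, and of -0.213 within the last 21, where it was under 0 for all but 24 genes. By inoculum origin the correlation had a median of -0.660 in CWR (n = 16), -0.511 in WEL (n = 15), -0.750 in SVR (n = 16) and -0.685 in TRI (n = 16). It was under 0 for all 150 genes in each, against 44.2% to 49.5% of the 17317 genes, and since these plants are the ones the choice used, this is a description of them and no support.

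The size of the drop differed widely between the genes. The ratio of the median CPM in the first 21 plants to that in the last 21 had a median of 3.29 and ranged from 1.24 to 123.3, while it was 0.988 in the median over the 17317 genes. It was under 1.5 for 13 genes and under 2 for 36, and it was 4 or more for 59, 8 or more for 31 and 16 or more for 20. In the last 21 plants 19 genes had a median under 1 CPM. For 0 of the 150 genes did the first 21 plants all lie above the last 21, and among the 17317 genes 0 were fully apart in either direction. In the median over the 150 genes, 14 of the first 21 plants lay above the highest of the last 21.

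The 2 genes with the lowest correlations show that a clear order does not need a large drop. Td00002ba011605 (chromosome 3, 92092905 to 92095112, plus strand, maize orthologue Zm00001eb311310) had a lowest, median and highest level of 19.9, 26.97 and 35.7 CPM in the first 21 live Drought plants and of 5.98, 17.7 and 23.5 CPM in the last 21. The drop was 1.52-fold between medians, and 16 of the last 21 plants lay under the lowest of the first 21. Td00002ba017004 (chromosome 5, 31857366 to 31859217, plus strand, orthologue Zm00001eb107690) went from 45.9, 93.3 and 154 CPM to 8.35, 23.4 and 63.6 CPM. Here the drop was 3.99-fold and 19 of the last 21 plants lay under the lowest of the first 21.

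Genes picked after their values were seen mark the ends of the range. Td00002ba015115 on chromosome 4, which had the highest CPM of the 150 genes, had a median of 2417 CPM in the first 21 plants and 873 CPM in the last 21. Td00002ba000439 on chromosome 1 had the smallest ratio, 1.24, with medians of 211 and 169 CPM. The largest ratio belonged to Td00002ba029585, described with the mock plants. At the threshold of the choice, Td00002ba013844 and Td00002ba000057 stood just inside with correlations of -0.6255 and -0.6254, and Td00002ba011839 and Td00002ba039562 just outside with -0.6246 and -0.6243.

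2 droughted plants went against their neighbours across most of the genes. In plantID_226 (WEL, mean level 3.94), 142 of the 150 genes lay under their median in the first 21 plants, against 47.5% of the 17317 genes. In plantID_380 (SVR, mean level 4.12), 17 of the 150 genes lay under their median in the last 21 plants, against 38.9% of the 17317 genes. In both plants the genes thus stood together on the other side.

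Depth and the makeup of the groups also moved along the plant numbers. The median total was 57.3 M counts in the first 21 live Drought plants, 54.7 M in the second 21 and 48.6 M in the last 21. The first 21 plants held 5 CWR, 7 WEL, 3 SVR and 6 TRI plants and the last 21 held 7, 3, 6 and 5. With only libraries of 30 M counts or more, all but 17 of the 150 genes were again among the 150 lowest. Over the 63 live Drought plants the Spearman correlation of the library total was 0.584 with the mean level of the 150 genes and -0.438 with plant number, points that share libraries. The share of counts from genes on scaffolds outside the 18 chromosomes had means of 0.549% and 0.655% in the first and last 21 plants, and 13 and 8 of these plants had an inoculum conditioned with gamagrass. The part of depth, origin, conditioning and scaffold share in the decline was not tested.

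The mock Drought plants addressed whether the same course appeared without a live inoculum, in libraries the choice had not used. It did in direction: the mean level of the 150 genes was 5.21 in plantID_197, 5.74 in plantID_243, 3.45 in plantID_318 and 3.88 in plantID_350. The first 2 lay within the range of live plants of similar number, and so did the last 2, and the pairs did not overlap. In plantID_318 and plantID_350 all but 2 of the 150 genes lay under their median in the first 21 live plants, against 55.3% and 49.3% of the 17317 genes. In all but 16 of the 150 genes both early plants were above both late ones, a pattern seen in 24.5% of the 17317 genes, and the reverse pattern was seen in 0 of the 150 genes and in 25.04% of the 17317. The median log2 ratio of the early to the late pair, on the log2(CPM + 1) scale, was 1.32 for the 150 genes and 0.01 for the 17317 genes.

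A slope on plant number was fitted to the 4 mock Drought libraries with DESeq2 over all genes, in log2 units per 10 plant numbers. Among the 150 genes 35 (23.3%) passed an adjusted p under 0.05 as lower with rising number and 0 as higher. Of all genes tested 3.48% were called lower and 1.86% higher, and of the genes the rule could choose from 2.95% were called lower. The median slope was -0.10 for the 150 genes and 0.00 for the genes they were chosen from, and all but 1 of the 150 slopes were negative, against 48.1% of the latter. The exception, Td00002ba020994 on chromosome 6, had 36.9, 169, 132.9 and 91.4 CPM in plantID_197, plantID_243, plantID_318 and plantID_350. With 4 libraries the calls depend on the tool: edgeR's quasi-likelihood test called 0 of the 150 genes and 0 of all genes. At an unadjusted p under 0.05 it had 41 of the 150 genes, and 2466 of the 31022 genes tested. On simulated counts of this size, with slopes set in few genes, most DESeq2 calls were false, more than its threshold allows. That share depends on how many genes were given a slope, so it is not a rate for the calls made here. Leaving out each plant in turn gave 28 to 44 of the 150 genes called lower and 0 higher. Of all genes tested in these fits, 1.82% to 3.29% were called lower and 1.33% to 2.38% higher.

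The 2 genes with the smallest p in this fit were at a few CPM or less in the late mock plants. Td00002ba037797 (chromosome 13, 95294059 to 95296581, plus strand, orthologue Zm00001eb275420) had 116.9, 225, 3.33 and 1.03 CPM in the mock plants plantID_197, plantID_243, plantID_318 and plantID_350. Its slope was -0.59 ± 0.09 (SE; DESeq2 adjusted p = 3.43e-08, edgeR adjusted p = 0.590), and the live Drought plants had medians of 83.7 CPM in the first 21 and 1.25 CPM in the last 21. Td00002ba029585 (chromosome 9, 75003867 to 75006000, minus strand, orthologue Zm00001eb181210) had 39.3, 69.5, 0.319 and 0.237 CPM in the same plants. Its slope was -0.66 ± 0.10 (DESeq2 adjusted p = 9.73e-08, edgeR adjusted p = 0.590). In live Drought plants it had a lowest, median and highest level of 1.04, 57.9 and 140 CPM in the first 21 and of 0.0395, 0.470 and 20.7 CPM in the last 21, a 123.3-fold drop between medians.

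**Figure D2:**
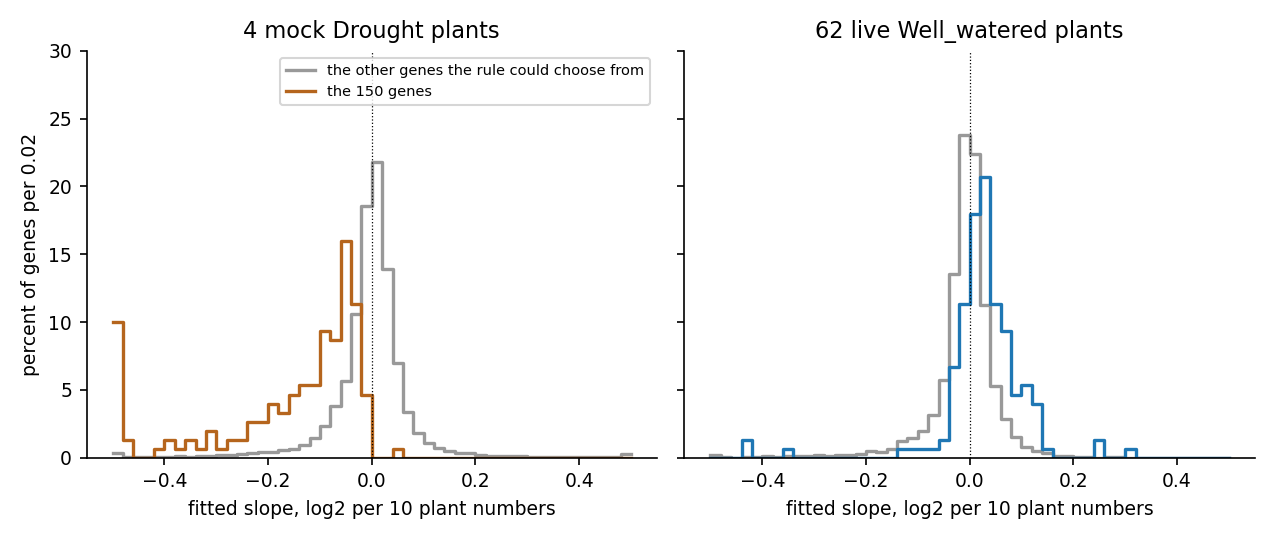
Distribution of the fitted slope on plant number (x axis, log2 per 10 plant numbers) as the percent of genes per bin (y axis), for the 150 genes (coloured) and the other genes the rule could choose from (grey), in mock Drought plants (left) and live Well_watered plants (right); the outermost bins also hold all slopes beyond them. In mock Drought plants all but 1 of the 150 slopes are under 0, and in live Well_watered plants 36 are.

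In Well_watered plants the genes did not decline with plant number. The lowest, median and highest mean level was 3.02, 4.60 and 5.31 in the first 21 live plants (plantID_394 to plantID_423), 3.43, 4.82 and 5.42 in the next 20 (plantID_424 to plantID_458) and 4.13, 4.73 and 5.49 in the last 21 (plantID_460 to plantID_491). These ranges shared the part from 4.13 to 5.31, and no plant of the last 21 was under 4. The median over all live Well_watered plants lay above that of the first 21 live Drought plants for 17 genes, below that of the last 21 for 1 gene, and between them for the rest. On the log2(CPM + 1) scale it was nearer to the first 21 for all but 24 genes, and the median ratio of the Well_watered median to that of the last 21 Drought plants was 2.43.

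**Figure D3:**
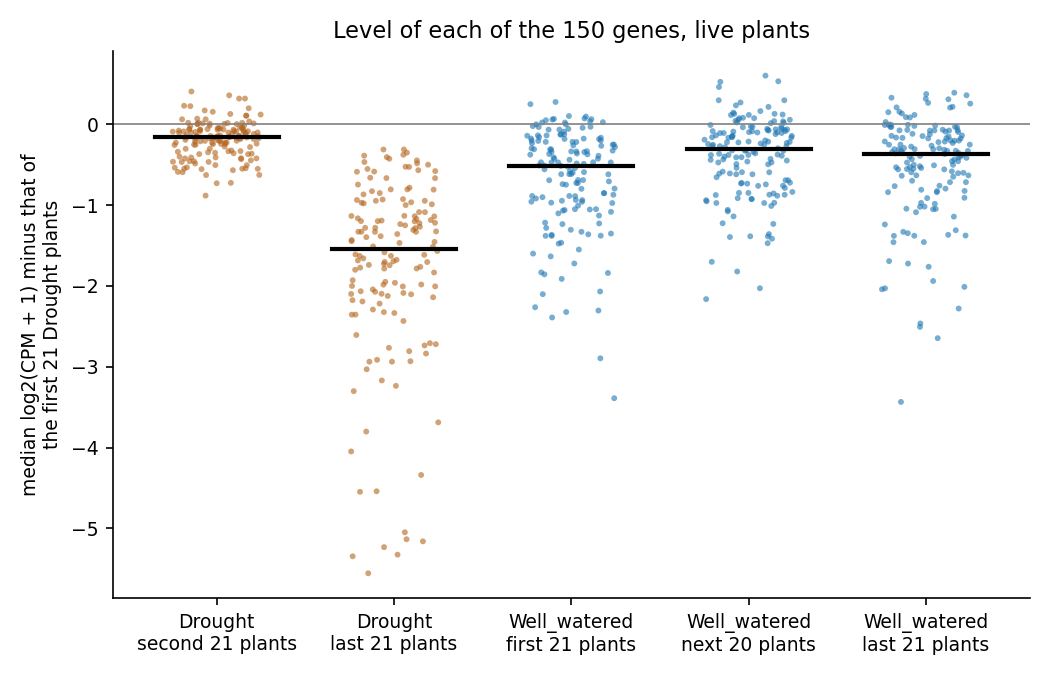
Median log2(CPM + 1) of each of the 150 genes in groups of live plants taken by plant number, minus that of the first 21 Drought plants (y axis); each point is 1 gene and the black bar is the median over genes. The bars lie at -0.16 in the second 21 Drought plants, -1.54 in the last 21, and -0.51, -0.31 and -0.36 in the first 21, next 20 and last 21 Well_watered plants.

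The spread among Well_watered plants was shared by most of the genes, and a few plants were low in nearly all of them. In plantID_417, plantID_433, plantID_423 and plantID_414 the mean levels were 3.02, 3.43, 3.50 and 3.72, and all but 3, 3, 9 and 19 of the 150 genes lay under their median over live Well_watered plants, against 47.4% to 51.7% of the 17317 genes. 6 of 62 live Well_watered plants had a mean level under 4, all of them among the first 41, and 1 of these, plantID_417, lay under the median of the last 21 Drought plants, 3.33. Between pairs of the 143 separate loci among the members, the Spearman correlation over the 62 live Well_watered plants had a median of 0.265 and was above 0 for 84.4% of pairs. For 3464 of the 17317 genes, taken at regular steps of rank, the median was 0.021 and 53.5% of pairs were above 0. These points share libraries and depth, and the values are descriptions.

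The slope on plant number in live Well_watered plants was called in 16 (10.7%) of the 150 genes as higher and in 3 (2.00%) as lower (DESeq2, adjusted p under 0.05), against 6.54% and 5.71% of all genes tested. With TMM scaling the balance over all genes turned to 5.42% higher and 7.67% lower, and 13 of the 150 genes were called higher and 4 lower. The median slope was 0.03 and 36 of the 150 slopes were negative, against 54.2% of the genes they were chosen from, but with only the 28 libraries of 30 M counts or more the median slope was -0.01 and 91 slopes were negative. Depth moved with plant number here, with median totals of 51.5 M, 24.7 M and 17.8 M counts in the first 21, next 20 and last 21 plants. With the log2 library total as a covariate 1 of the 150 genes was called, as higher, and 0.753% of all genes were called higher and 0.984% lower. The median slope of the 150 genes in that fit was 0.034 and 26 slopes were negative, so the 2 ways of handling depth differed in sign. With the deep libraries only, DESeq2 called 0 of the 150 genes and 17 of 43051 genes tested, so the calls fell over the whole table. At an unadjusted p under 0.05 were 3 of the 150 genes and 2333 of all genes in that fit.

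Among the genes called higher, Td00002ba010372 (chromosome 3, 34250391 to 34252715, plus strand, orthologue Zm00001eb322950) had a lowest, median and highest level of 0.275, 3.41 and 21.1 CPM in the first 21 Well_watered plants, 0.243, 3.30 and 23.2 CPM in the next 20 and 0.812, 5.26 and 160 CPM in the last 21. The groups overlapped, and single plants reached high values in the last. Its slope was 0.32 ± 0.07 (SE, DESeq2 adjusted p = 0.000157), and -0.13 with deep libraries only (adjusted p = 0.9999). With the log2 library total as a covariate this slope was 0.32 (DESeq2 adjusted p = 0.0275). Td00002ba017165 (chromosome 5, 35689203 to 35692322, plus strand, orthologue Zm00001eb106160) had medians of 9.30, 9.86 and 17.9 CPM in the same groups and a slope of 0.26 ± 0.07 (adjusted p = 0.00218), which was -0.14 with deep libraries only (adjusted p = 0.9999). It overlaps Td00002ba017166 on the other strand, also among the 150 genes, and their reads were split between them. With the log2 library total as a covariate the slope of Td00002ba017165 was 0.25 (DESeq2 adjusted p = 0.122).

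The Well_watered declines were fewer. Td00002ba042629 (chromosome 16, 81563490 to 81565373, plus strand, orthologues Zm00001eb347740 and Zm00001eb315680) had a lowest, median and highest level of 0, 10.7 and 243.8 CPM in the first 21 Well_watered plants, 0.0466, 2.62 and 91.7 CPM in the next 20 and 0, 0.497 and 57.7 CPM in the last 21. High plants thinned out along the series, while low plants were present in every group. Its slope was -0.43 ± 0.11 (DESeq2 adjusted p = 0.00325), and -0.41 with deep libraries only (adjusted p = 0.9999). With the log2 library total as a covariate this slope was -0.30 (DESeq2 adjusted p = 0.863). With origin and conditioning as covariates it was -0.55 (DESeq2 adjusted p = 3.07e-05). In live Drought plants its medians were 15.2 CPM in the first 21 and 0.257 CPM in the last 21. Td00002ba029810 (chromosome 9, 96663559 to 96665329, minus strand, orthologue Zm00001eb204390) had medians of 45.5, 37.02 and 33.3 CPM, a slope of -0.07 ± 0.02 (adjusted p = 0.0499, edgeR adjusted p = 0.0507), which was -0.02 with the log2 library total as a covariate (adjusted p = 0.904), -0.10 with deep libraries only (0.922), and not called with origin and conditioning as covariates (0.0673).

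**Figure D4:**
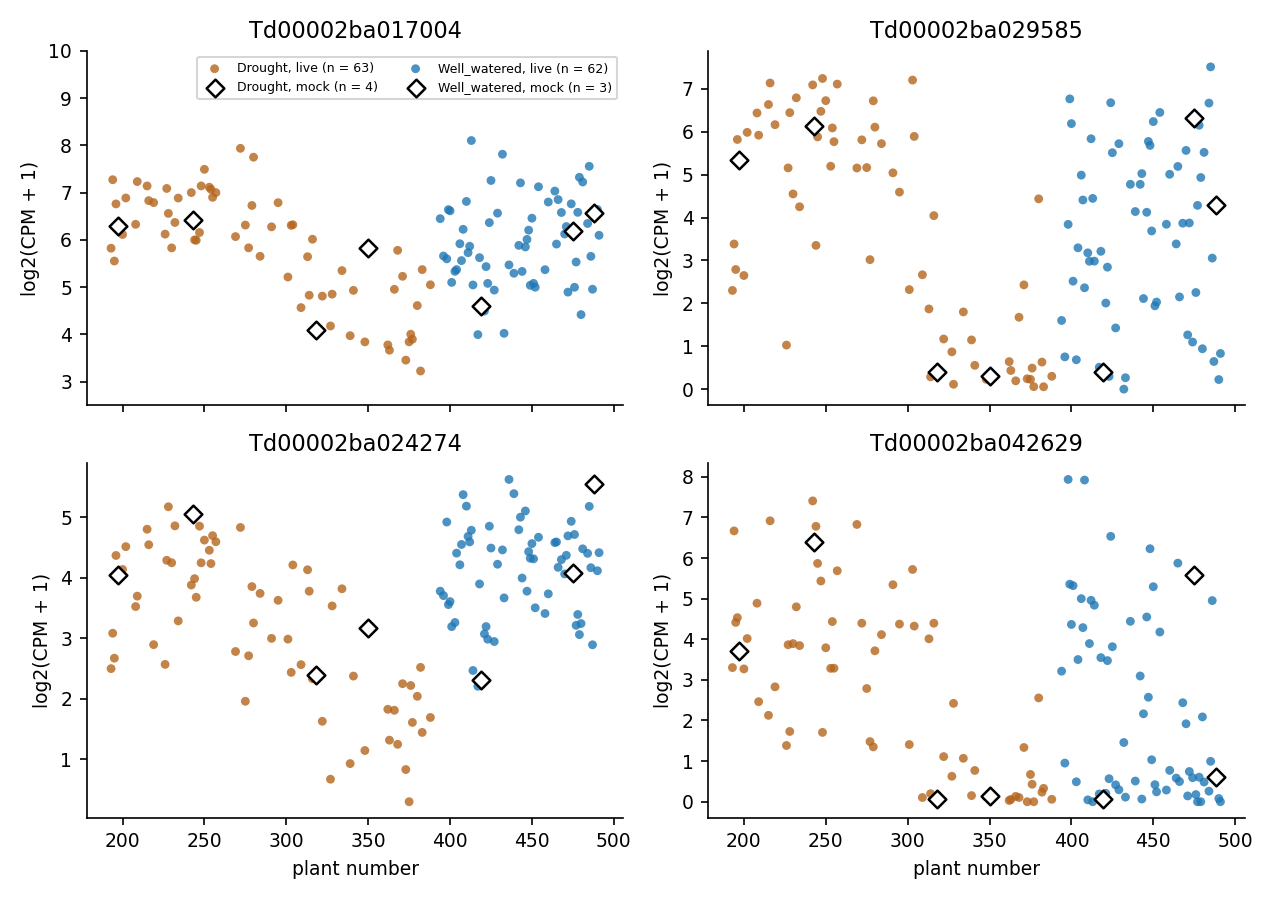
Level of 4 of the 150 genes as log2(CPM + 1) (y axis) in each plant by plant number (x axis), with live plants as filled points (Drought brown, Well_watered blue) and mock plants as open diamonds. Td00002ba017004 and Td00002ba029585 are lower in most late Drought plants and spread widely in Well_watered plants, Td00002ba024274 is above its late Drought median of 2.23 CPM in all 62 live Well_watered plants, and Td00002ba042629 thins out along the numbers in both treatments.

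The mock Well_watered plants repeated the spread among live ones. The mean level of the 150 genes was 3.12 in plantID_419, 5.32 in plantID_475 and 4.84 in plantID_488. The first of these had low live plants of similar number beside it (plantID_417 and plantID_423), and 144 of the 150 genes were under their live Well_watered median in it, against 34 in plantID_475 and 49 in plantID_488. Of the 17317 genes these were 49.4%, 54.8% and 46.2%. The value was higher in plantID_475 than in plantID_419 for 140 of the 150 genes and for 46.4% of the 17317. No slope was fitted to these 3 libraries.

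Drought and Well_watered plants were compared over all live libraries, with legacy, conditioning water and conditioning host in the DESeq2 model. At an adjusted p under 0.05, 19 (12.7%) of the 150 genes were lower in Drought and 8 (5.33%) higher, against 12.8% and 10.5% of all genes tested. Of the genes the rule could choose from, 12.1% were called lower and 15.6% higher. The share called lower was near both backgrounds and the share called higher under both, and the median log2 fold change was -0.01. With only libraries of 30 M counts or more, 5 (3.33%) were lower and 8 (5.33%) higher. In that fit 4.68% and 6.16% of all genes were called lower and higher, and 4.86% and 8.75% of the genes the rule could choose from. The mean over the Drought plants pools the plateau with the low end of the series. The live Drought plants compared here also chose the genes, and the minimum of 5 CPM was set in them alone. The counts and the adjusted p of the single genes below are thus descriptions and no support for a drought response. Comparisons by inoculum history and of live with mock Drought plants use the same libraries.

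Td00002ba024274 (chromosome 7, 111811269 to 111813153, plus strand, orthologue Zm00001eb250000) had a lowest, median and highest level of 0.229, 8.51 and 34.999 CPM in live Drought and 3.61, 18.7 and 48.2 CPM in live Well_watered plants. The ranges overlapped, but all 62 Well_watered plants lay above the median of the last 21 Drought plants. Its log2 fold change was -0.79 ± 0.19 (SE, DESeq2 adjusted p = 0.000474), and -0.67 with deep libraries only (adjusted p = 0.0891). Td00002ba006548 (chromosome 2, 64077233 to 64078198, plus strand, orthologue Zm00001eb155470) had 0.382, 4.503 and 33.8 CPM in Drought and 1.52, 9.55 and 32.9 CPM in Well_watered plants, with a log2 fold change of -0.75 ± 0.20 (adjusted p = 0.00239), and -0.49 with deep libraries only (adjusted p = 0.257).

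Td00002ba044581 (chromosome 18, 7542232 to 7561511, minus strand, orthologue Zm00001eb406530) was higher in Drought, with 0.260, 8.82 and 75.2 CPM against 0, 3.45 and 36.7 CPM. Its log2 fold change was 1.30 ± 0.28 (DESeq2 adjusted p = 6.03e-05), and 0.98 with deep libraries only (adjusted p = 0.0507). In the last 21 Drought plants, however, its median of 2.14 CPM was under the Well_watered median. Td00002ba009837 (chromosome 3, 17160486 to 17161710, minus strand, orthologue Zm00001eb328300) had 0.0241, 5.58 and 126.4 CPM against 0.728, 3.85 and 50.9 CPM, with a log2 fold change of 1.01 ± 0.31 (adjusted p = 0.00899). The Drought ranges of both genes covered the Well_watered range at the upper end.

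By the history of the inoculum 0 of the 150 genes were called, where few of all genes were called either. Precipitation legacy, conditioning water and conditioning host gave 0 of the 150 genes at an adjusted p under 0.05 with DESeq2, and 0, 6 and 1 at an unadjusted p under 0.05. With edgeR these were 0 called, and 0, 4 and 1 unadjusted. Over all genes 1010, 1315 and 1349 of 33932 genes tested had an unadjusted p under 0.05 with edgeR. Of the 44252 genes tested with DESeq2, 0.0633%, 0.0429% and 0.0452% were called. An unadjusted p under 0.05 was reached there by 1523, 1901 and 1925 genes over the whole table. The median DESeq2 log2 fold changes of the 150 genes were 0.016 (low minus high legacy), 0.063 (drought-stressed minus watered) and 0.088 (gamagrass minus no host). Over the genes they were chosen from these were 0.007, -0.003 and -0.001. With plant number within each water treatment as a covariate 0 of the 150 genes were called in each of these comparisons. Their medians were then 0.021, -0.004 and 0.022.

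Live and mock plants were compared within each water treatment. In Drought plants 0 of the 150 genes were called with DESeq2 and 0 with edgeR, against 0.0914% of the 42666 genes tested with DESeq2. At an unadjusted p under 0.05 were 3 of the 150 genes and 1517 of all genes with DESeq2. With edgeR these were 2 of the 150 genes and 1094 of 35814 genes tested. The median log2 fold change of the 150 genes was -0.10, but it turned with single mock plants. It was 0.02, 0.25, -0.31 and -0.23 without plantID_197, plantID_243, plantID_318 and plantID_350, and 0.02 with plant number as a covariate. Without plantID_243, 1 of the 150 genes was called as higher in live plants, and 41 of 43634 genes tested. In Well_watered plants 0 of the 150 genes were called with DESeq2 and 0 with edgeR, against 0.0856% of the 43221 genes tested with DESeq2. Their median log2 fold change was 0.12. At an unadjusted p under 0.05 were 3 of the 150 genes and 2216 of all genes with DESeq2. With edgeR these were 2 of the 150 genes and 1376 of 34986 genes tested. Without the mock plant plantID_475, whose level was the highest of the 3, 2 (1.33%) of the 150 genes were called as higher in live plants, against 0.472% of all genes, and the median was 0.50. Without plantID_419 the median turned to -0.21, with 0 genes called. Since the mock plants in each treatment spanned most of the range of the live ones, 3 or 4 of them place their mean poorly.

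The genes shared few features that the choice had not used. They lay on all 18 chromosomes, with the most on chromosomes 2 (19 genes), 1 (18), 4 (17) and 3 (16), which held 10.7%, 12.2%, 7.52% and 8.32% of the 17317 genes. Gene length, introns included, had a median of 3094 bases against 4426 over the 17317 genes, and the mean CPM in live Drought plants had a median of 25.2 against 25.9. A gene that was alone in its orthogroup with 1 maize gene made up 66.7% of the 150 and 57.995% of the 17317. A list of 13 gamagrass genes named in the study's text, supplement or extended data had none among the 150, and 4 among the 17317. With only these 4 open to the choice, their absence from the 150 says little. Other genes named there, such as Td00002ba012570 and many in the extended data, were not on this list.

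Some of the 150 genes are not separate measurements. The members held 7 pairs of genes that overlap on opposite strands within the same orthogroup, with correlations of their CPM over the plants of 0.957 or more, so that the 150 genes lie at 143 separate loci. Td00002ba024062 and Td00002ba024063, such a pair on chromosome 7, share the maize orthologue Zm00001eb247430 with Td00002ba029222 on chromosome 9, which was also a member. The gene of the pair had medians of 13.1 CPM in the first 21 and 1.76 CPM in the last 21 live Drought plants, and Td00002ba029222 had 9.07 and 0.863 CPM. Reads that fit several places were shared as fractions, so values of such copies are uncertain. For 8 members the duplicate was examined, that is the 1 other gene of the 17317 in their orthogroup, overlapping partners not counted. Of these duplicates 7 had a correlation under 0 along the droughted plants (range -0.640 to 0.438, median -0.299), as had 47.5% of the 17317 genes. 1 duplicate was itself a member.

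Genes without a maize orthologue were outside the choice. Of 3868 such genes with a mean of 5 CPM or more in live Drought plants, 16 (0.414%) had a correlation at or under the highest among the members, a share that is 0.866% in the 17317 genes. The lowest, Td00002ba038567 on chromosome 14, had a correlation of -0.721, and had 66.6, 86.1, 12.9 and 42.1 CPM in the mock Drought plants plantID_197, plantID_243, plantID_318 and plantID_350.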

How the data were processed

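Poly(A) libraries of the crown roots, 1 per plant, were made with a directional kit. Adapter trimming (cutadapt), alignment to the gamagrass reference genome (HISAT2), duplicate removal (SAMtools) and counting per gene (featureCounts 2.0.5) were done by the authors. What the authors deposited are expected counts without scaling: reads over overlapping genes or several places were split as fractions, and no strand setting is in the header, so overlapping genes cannot be told apart. A second deposited table gives maize orthologues by identifier, and gene length is the authors' value. Coordinates are in the build of the files. There were 0 per-sample columns without a sample.

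CPM was the count divided by the library total and multiplied by 1000000. Counts were rounded for DESeq2 1.42.0 (Wald tests) and edgeR 4.0.16 in R 4.3.3. Models were fitted over all genes and p-values, two-sided, were adjusted by Benjamini-Hochberg over the genes that passed independent filtering. Other steps used Python 3.11.15 with pandas 2.3.3 and scipy 1.17.1. All 150 genes were tested in every comparison. The procedures were tested on simulated data. Precision is given as the SE of each fit and as ranges over plants, and covers the spread between plants. The alternatives were edgeR, TMM scaling, a filter on low counts, depth and covariates, and leaving out mock plants.

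Genes were named by a rule: the 2 lowest correlations, the called genes with the largest slopes or fold changes (at most 2 in each direction; for Well_watered slopes with a mean of 5 CPM or more there), the smallest p in the other comparisons, and the genes at the threshold. The members, lists and tests were chosen with earlier results of these data known.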

Additional observations from a re-analysis of the deposited data

Results flagged for a closer look

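Among the 4 mock Drought plants, 17 sets of 4 values (the mean level and 16 genes) were examined for a plant far from the other 3, by the gap to its nearest neighbour as a share of the whole range. In 4 sets a plant stood far apart. The sets share the same 4 plants and the gaps of single genes are in CPM, not log2, so no rate expected by chance is given. Td00002ba010372 had 57.4 CPM in plantID_197 and 1.48 to 5.57 CPM in the others, a gap of 0.927 of the range. Td00002ba017165 had 168 CPM in the same plant and 2.45 to 17.1 CPM in the others (0.912). Td00002ba042629 had 83.2 CPM in plantID_243 and 0.0456 to 12.1 CPM in the others (0.855), and Td00002ba009837 had 91.8 CPM in plantID_243 and 0.421 to 9.08 CPM in the others (0.905).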

How the results depend on the processing

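Of the 150 genes, 40 were no longer among the lowest 150 with Pearson correlations of log2(CPM + 1), 21 with TMM-scaled CPM, 15 with genes lacking a maize orthologue admitted, 24 with a minimum of 1 CPM, and 17 with only libraries of 30 M counts or more. In live Well_watered plants the slope on plant number was called in 19 genes, in 1 with the log2 library total as a covariate and in 0 with libraries of 30 M counts or more, where the slopes of Td00002ba010372 and Td00002ba017165 turned to -0.13 and -0.14. In mock Drought plants 35 genes were called and 0 with edgeR, and 28 to 44 when a plant was left out. For Drought against Well_watered, 27 genes were called and 13 with libraries of 30 M counts or more. Live against mock called 0 genes in both treatments, 0 to 1 when a mock Drought plant was left out and 0 to 2 when a mock Well_watered plant was left out. Precipitation legacy and both kinds of conditioning called 0 genes under each alternative. Of the values for single genes, 2 reversed and 12 lost the threshold. In these cases the cause was not tested. No paired analysis was possible because the labels give plant numbers but no replicate number or slurry that links a Drought to a Well_watered plant. Limits are that the number's meaning is unknown, that depth falls along Well_watered numbers, and that 3 or 4 mock plants per treatment leave mean levels imprecise.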
